A study of Mus musculus with 6 samples.

Results

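The genes described here store, move and buffer energy in muscle, and 9 of them were listed by symbol: the creatine kinase genes *Ckm*, *Ckb* and *Ckmt2*, the myoglobin gene *Mb*, the AMP deaminase genes *Ampd1* and *Ampd3*, the adenylate kinase gene *Ak1*, the fatty acid binding protein gene *Fabp3* and the coactivator gene *Ppargc1a*. Their symbols were mapped to gene identifiers, and 8 of the 9 had a value among the 14548 genes in the files. *Ckmt2*, the mitochondrial creatine kinase of muscle, is not analysed here. The values are FPKM, the fragments on a gene divided by its exon length in kilobases and by the depth of its library, so levels of different genes are compared per length.

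The mRNA came from C2C12 cells, a mouse cell line of muscle precursors (myoblasts), which the study grew in DMEM with fetal bovine serum. The WT group had 3 libraries of cells with genotype WT. The MSTN-KO group had 3 libraries of cells in which *Mstn*, the gene of the muscle growth inhibitor myostatin, was cut in its exon 3 with CRISPR/Cas9, and these cells were the edited line C11. A single edited line stood for the knockout, so loss of MSTN cannot be told apart from other differences between this line and the WT cells. The labels name C11 as the strain of both groups, and the grouping follows the genotype. *Mstn* RNA was between 0 and 0.0586 FPKM in all 6 libraries, with WT and MSTN-KO values overlapping, and could not check the labels. The sources do not say that replicates were separate cultures, so p-values measure the spread between these libraries, which may be technical. In RNA from a whole culture, fewer cells of a type and less RNA per cell cannot be told apart.

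Muscle contraction uses ATP faster than mitochondria can replace it, and several enzymes hold the ATP level in the meantime. Creatine kinase passes phosphate between phosphocreatine and ADP, adenylate kinase turns a pair of ADP molecules into ATP and AMP, and AMP deaminase removes the AMP. Myoglobin stores oxygen, and FABP3 carries fatty acids through the cytosol. During muscle differentiation the brain-type creatine kinase of myoblasts (*Ckb*) is joined by the muscle type (*Ckm*), and *Ckm*, *Mb* and *Ampd1* are classical genes of differentiated fibres.

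The labels call the cells myoblasts from skeletal muscle, and the precursor genes *Myod1* and *Des* were expressed in every library, at 90.8 FPKM or more for *Myod1* and 325 FPKM or more for *Des*. The 9 measured markers of muscle differentiation, *Myog* and sarcomere genes among them, were also expressed in WT and summed to 1139, 1143 and 350 FPKM in WT replicates 1, 2 and 3. In the MSTN-KO replicates they summed to 51.2, 69.7 and 87.0 FPKM, and all 9 were lower by the test used below. WT replicate 3 thus stood apart from the other WT libraries, and the log2 fold changes of the tested energy buffer genes are given with and without it. The depth, estimated from the smallest FPKM steps, was about 16200000 to 21300000 fragments per library.

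Of the 8 genes, 6 reached 1 FPKM in at least 1 library and were tested with limma on log2(FPKM + 1) over all 10837 genes that did so. *Ckm*, *Mb* and *Fabp3* were downregulated in MSTN-KO cells at a Benjamini-Hochberg adjusted p under 0.05, and 0 of the 6 were upregulated. *Ckb*, *Ampd3* and *Ak1* were not called, and *Ampd1* and *Ppargc1a* were too low to test. Among all tested genes, 8.96% were called lower and 8.78% higher. By the rule of the study's methods, an unadjusted p under 0.05 with a log2 fold change above 1 or below -1, the same 3 genes were lower and 0 were higher, against 2.3% and 1.21% of all tested genes. The median log2 fold change was -0.87 over the 6 genes and -0.00078 over all tested genes. *Ckm* reached 1 FPKM only in the WT libraries and entered the test through the group in which it was high, so these counts and medians are a description of the genes. At an unadjusted p under 0.05, 5 of the 6 were lower and 0 were higher, against 16.2% and 16.3% of all tested genes.

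**Figure D1:**
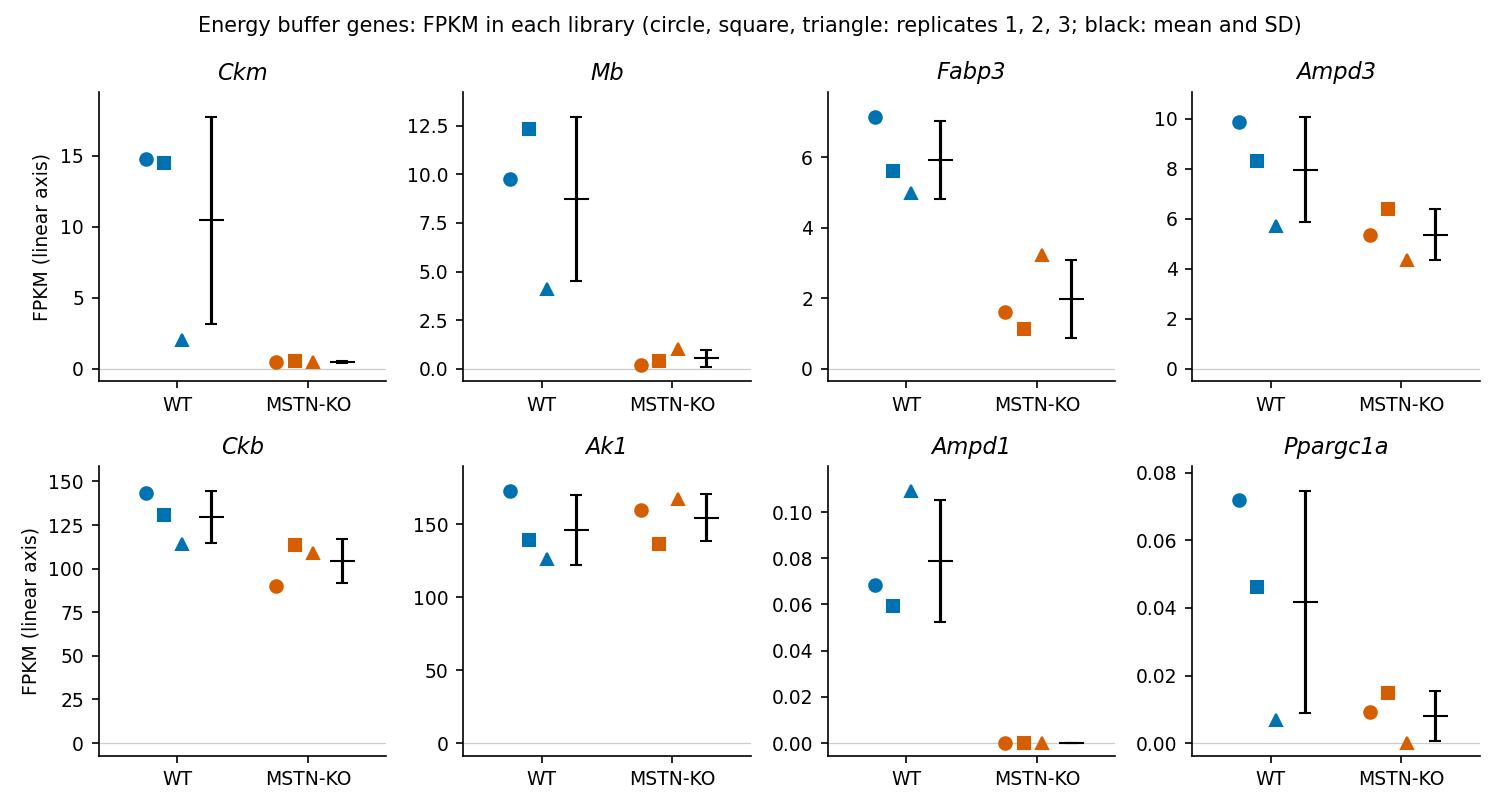
FPKM of the 8 measured energy buffer genes in each library, 1 panel per gene with its own linear axis. Blue points are WT and orange points MSTN-KO, with circles, squares and triangles for replicates 1, 2 and 3, and black bars give the mean and SD of 3 libraries. The MSTN-KO points of *Ckm*, *Mb*, *Fabp3*, *Ckb* and *Ampd1* lie below all WT points, those of *Ckb* by a narrow margin. The share of all genes whose groups separate in this way is not given here. WT replicate 3 is the lowest WT library in all panels except that of *Ampd1*.

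The cytosolic creatine kinases were examined first. *Ckm* (ENSMUSG00000030399, GRCm38 chromosome 7, 19404776 to 19422841, plus strand, 8 exons in its principal transcript) encodes the muscle subunit. In WT replicates 1, 2 and 3 its FPKM was 14.8, 14.5 and 2.05, against 0.450, 0.565 and 0.456 in MSTN-KO replicates 1, 2 and 3. The MSTN-KO libraries lay close together and below all WT libraries, and WT replicate 3 lay nearer to them than to the other WT libraries.

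The mean *Ckm* level was 10.4 ± 7.27 FPKM in WT and 0.491 ± 0.0649 FPKM in MSTN-KO (SD, n = 3), a 21.3-fold difference of means. On the log2(FPKM + 1) scale, which understates the change of low genes, the difference was -2.61 (standard error 0.46, limma adjusted p = 0.00219). Without WT replicate 3 it was -3.39 (adjusted p = 3.56e-08), and *Ckm* was called lower under all 16 alternatives tried. WT replicate 3 alone was 3.63 times as high as the highest MSTN-KO library. The MSTN-KO values rest on about 20 to 30 fragments per library.

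*Ckb* (ENSMUSG00000001270, chromosome 12, 111669361 to 111672338, minus strand) encodes the brain subunit. Its FPKM was 143.7, 130.7 and 114.1 in WT, against 90.3, 113.8 and 109.2 in MSTN-KO. Every WT library was above every MSTN-KO library, but WT replicate 3 exceeded MSTN-KO replicate 2 only 1.002-fold.

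The *Ckb* means were 129 ± 14.8 FPKM in WT and 104 ± 12.4 FPKM in MSTN-KO (SD, n = 3). The difference on the log2 scale was -0.31 (standard error 0.14, 95% interval -0.60 to -0.01), with an unadjusted p of 0.0413 and a limma adjusted p of 0.135, so *Ckb* was not called. Without WT replicate 3 the difference was -0.40 (limma adjusted p = 0.0979), also not called. *Ckb* was called lower after quantile normalization (adjusted p = 0.0323) and after a smooth correction of length and GC content (adjusted p = 0.0286). With that correction and a replicate block it was called too (adjusted p = 0.0363). It was also called with each library scaled to an FPKM sum of 1000000 (-0.59, adjusted p = 0.0111). That scaling moved the median of all genes by -0.26, and *Ckb* was -0.34 relative to that median. Its pseudogenes *Ckb-ps1* and *Ckb-ps2* lie on chromosome 17, and reads shared with them could enter its value.

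The stretches of 5′ flanking DNA before the annotated starts of *Ckm* and *Ckb* are printed because *Ckm* was called lower and *Ckb* was not although both encode subunits of one enzyme, and that of *Mb* because it was called lower as *Ckm* was. They are RefSeq sequences on GRCm38.p6, 5′ to 3′ on the strand of the gene, with the E-box letters CANNTG in capitals, the sequence that MyoD family factors recognise. The *Ckm* stretch is chr7:19410844-19411024 on the plus strand, that of *Mb* is chr15:77022788-77023037 on the minus strand, before 1 of its RefSeq starts, and that of *Ckb* is chr12:111672339-111672588 on the minus strand. The *Ckm* stretch stops where GENCODE begins an exon.
Ckm: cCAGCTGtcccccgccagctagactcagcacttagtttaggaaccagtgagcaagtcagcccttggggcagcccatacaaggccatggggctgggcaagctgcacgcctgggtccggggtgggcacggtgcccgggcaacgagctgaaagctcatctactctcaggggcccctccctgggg
Mb: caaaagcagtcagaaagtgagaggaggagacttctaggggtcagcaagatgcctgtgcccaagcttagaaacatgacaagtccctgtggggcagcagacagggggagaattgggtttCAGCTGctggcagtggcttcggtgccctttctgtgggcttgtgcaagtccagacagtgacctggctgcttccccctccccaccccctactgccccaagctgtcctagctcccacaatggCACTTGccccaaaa
Ckb: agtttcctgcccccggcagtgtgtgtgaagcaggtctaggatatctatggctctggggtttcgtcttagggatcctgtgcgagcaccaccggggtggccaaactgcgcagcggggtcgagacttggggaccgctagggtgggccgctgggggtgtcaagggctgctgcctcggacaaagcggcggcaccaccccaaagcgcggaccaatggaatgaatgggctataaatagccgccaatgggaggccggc

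In the 250 bases before the RefSeq start, *Ckm* had 1 CANNTG match, which was CAGCTG and began 249 bases before the start. The *Mb* stretch had 2 CANNTG matches, 1 of them CAGCTG at 133 bases before the start. *Ckb* had 0 CANNTG matches and had 1 TATAAA, 28 bases before its start, which overlapped 1 match to the MEF2 consensus. Of 32851 RefSeq promoters of the same length, 66.2% held CANNTG, 13.0% CAGCTG, 12.4% TATAAA and 2.92% the MEF2 consensus, with both strands searched. The other *Mb* starts, and the RefSeq starts found for *Ak1*, *Ampd3*, *Fabp3* and *Ppargc1a*, had between 0 and 6 CANNTG matches. CAGCTG was also found before 2 starts of *Ak1*, which was not called, and was not found before the start of *Fabp3*, which was called lower, or before the most distant *Mb* start. The well-known muscle enhancer of *Ckm* lies farther upstream than this window, and a match of letters is not evidence of binding.

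*Ckb* was the prevailing creatine kinase transcript in both groups. Its FPKM was 9.72, 9.0 and 55.7 times that of *Ckm* in WT replicates 1, 2 and 3 and 201, 201 and 239 times in the MSTN-KO replicates. *Ckmt1*, the ubiquitous mitochondrial creatine kinase, did not exceed 0.249 FPKM in any library and was not tested.

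The share of *Ckm* in the summed FPKM of *Ckm*, *Ckb* and *Ckmt1* was 9.33%, 9.99% and 1.76% in WT and 0.494%, 0.494% and 0.416% in MSTN-KO. The groups did not overlap, and the means of 7.03% ± 4.57 and 0.468% ± 0.0453 (SD, n = 3) differed by -6.56 percentage points (two-sided exact permutation test, p = 0.1, the smallest that 3 libraries against 3 allow). The log2 ratio of *Ckm* to *Ckb*, taken as FPKM + 1, was lower in MSTN-KO by a mean of -2.30 with the same exact p of 0.1, and lower by -3.00 without WT replicate 3. The summed FPKM itself was 140 ± 21.6 in WT and 105 ± 12.4 in MSTN-KO (exact permutation p = 0.1). *Ckm* accounted for 14.8 FPKM of that sum at most.

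**Figure D2:**
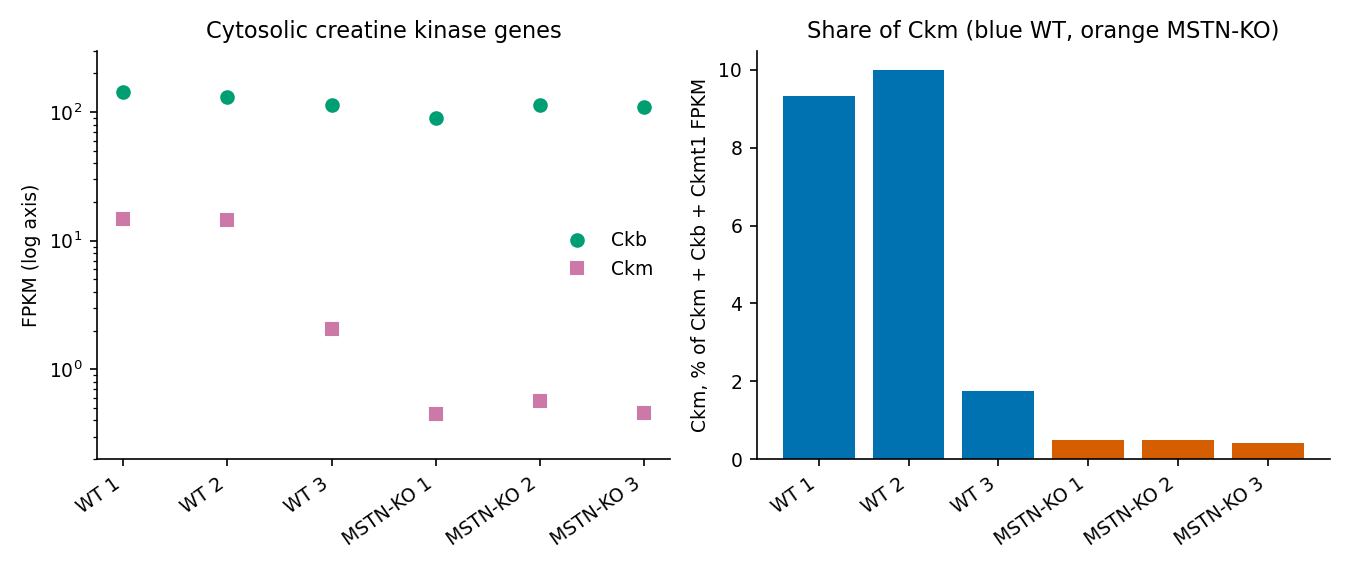
Left, FPKM of *Ckb* (circles) and *Ckm* (squares) in each library on a log axis. Right, *Ckm* as a percentage of the summed FPKM of *Ckm*, *Ckb* and *Ckmt1*, with WT in blue and MSTN-KO in orange and 1 bar per library. *Ckb* stays between 90.3 and 144 FPKM, and the *Ckm* share is 1.76% to 9.99% in WT and under 0.5% in MSTN-KO.

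*Mb* (ENSMUSG00000018893, chromosome 15, 77015487 to 77050670, minus strand, 3 exons in its principal transcript) encodes the oxygen-storing globin of striated muscle. The WT libraries had 9.74, 12.3 and 4.09 FPKM, against 0.203, 0.403 and 1.02 FPKM in MSTN-KO. All MSTN-KO libraries were below all WT libraries, with WT replicate 3 again the lowest of its group and MSTN-KO replicate 3 the highest of its own.

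The means were 8.72 ± 4.21 and 0.543 ± 0.428 FPKM (SD, n = 3), a 16.1-fold difference. On the log2 scale this was -2.58 (standard error 0.30, limma adjusted p = 8.49e-05), and without WT replicate 3 it was -2.99 (adjusted p = 1.45e-06). *Mb* was called lower under all 16 alternatives, with 0.00717 as the highest adjusted p. Its values in MSTN-KO replicates 1, 2 and 3 rest on about 4, 8 and 21 fragments. *Apol6* overlaps *Mb* on the opposite strand and was at 0.171 to 0.338 FPKM in WT and 0.547 to 2.79 FPKM in MSTN-KO, and the sources do not say whether counting used the strand. Of the other monomeric globins, *Cygb* was at or below 0.397 FPKM in every library, and *Ngb* is not analysed here.

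*Fabp3* (ENSMUSG00000028773, chromosome 4, 130308595 to 130315463, plus strand) encodes the fatty acid binding protein of heart and skeletal muscle. WT expression was 7.14, 5.62 and 4.99 FPKM, against 1.61, 1.12 and 3.22 FPKM in MSTN-KO. These ranges did not overlap, and the WT libraries were closer to each other than for *Ckm* or *Mb*.

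The *Fabp3* means were 5.92 ± 1.104 and 1.98 ± 1.103 FPKM (SD, n = 3), a 2.98-fold difference. The values in MSTN-KO replicates 1, 2 and 3 rest on about 21, 18 and 49 fragments. On the log2 scale the difference was -1.26 (standard error 0.23, limma adjusted p = 0.00265). Without WT replicate 3 it was -1.36 (adjusted p = 0.00365), and the gene was called lower under all 16 alternatives. *Zcchc17* overlaps its end on the opposite strand at 19.9 to 26.5 FPKM, and a pseudogene, *Fabp3-ps1*, lies on chromosome 10, so reads shared with these could enter its value.

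The AMP deaminases were measured at very different levels. *Ampd3* (ENSMUSG00000005686, chromosome 7, 110768206 to 110812405, plus strand), the form first known from red blood cells, had 9.86, 8.31 and 5.70 FPKM in WT, against 5.34, 6.41 and 4.36 FPKM in MSTN-KO. The groups overlapped, since WT replicate 3 was below MSTN-KO replicate 2. Its log2 fold change was -0.48 (95% interval -0.89 to -0.06, unadjusted p = 0.0282, limma adjusted p = 0.105), so it was not called. Without WT replicate 3 it was -0.67 (adjusted p = 0.0319) and was called. It was also called with each library scaled to a sum of 1000000 (-0.74, adjusted p = 0.0465, and -0.48 relative to the shifted median of all genes). A replicate block with the length and GC correction gave a call as well (-0.45, adjusted p = 0.0479). *Rnf141* overlaps *Ampd3* on the opposite strand and was at 5.28 to 12.03 FPKM.

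*Ampd1* (ENSMUSG00000070385, chromosome 3, 103074014 to 103099720, plus strand), the form of skeletal muscle fibres, had 0.0683, 0.0594 and 0.109 FPKM in WT and was listed at 0 in all 3 MSTN-KO libraries. The WT values correspond to about 3, 3 and 5 fragments. A count of 0 allows up to 3 fragments, or 0.0671 to 0.0792 FPKM in the MSTN-KO libraries, counting error only. WT replicates 1 and 2 did not exceed the highest of these limits, and WT replicate 3 lay above it. *Ampd1* was left out of the test, and with no filter on low values its unadjusted p was 0.0119 and its adjusted p 0.0768, so it was not called.

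*Ampd2*, the widely expressed form, was the most abundant AMP deaminase, at 22.0 ± 2.38 FPKM in WT and 27.2 ± 3.17 FPKM in MSTN-KO (SD, n = 3), with a limma adjusted p of 0.159. The log2 ratio of *Ampd1* to *Ampd3*, taken as FPKM + 1, differed by 0.37 (two-sided exact permutation test, p = 0.3). With *Ampd1* near 0 this ratio follows *Ampd3*, and with a pseudocount of 0.1 its direction turned (-0.29, exact p = 0.6).

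*Ak1* (ENSMUSG00000026817, chromosome 2, 32621758 to 32635058, plus strand) encodes the cytosolic adenylate kinase of muscle. It was the highest of the 8 genes by mean in both groups, with 173, 139 and 126 FPKM in WT, against 160, 136 and 168 FPKM in MSTN-KO. The groups overlapped over most of their range. The log2 fold change was 0.09 (95% interval -0.22 to 0.40, limma adjusted p = 0.695), an interval that leaves room for changes of up to 1.32-fold upwards and 1.16-fold downwards on the FPKM + 1 scale. Its sign turned with quantile normalization, with a correction for length and GC content, without WT replicate 3, and with scaling to a sum of 1000000. In the last case it was still 0.06 above the shifted median of all genes.

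*Ppargc1a* (ENSMUSG00000029167, chromosome 5, 51454250 to 51567726, minus strand) encodes PGC-1 alpha, a coactivator of mitochondrial genes. Its values were 0.0721, 0.0461 and 0.00687 FPKM in WT, against 0.00917, 0.0148 and 0 FPKM in MSTN-KO, which is about 9, 6 and 1 fragments against 1, 2 and 0. WT replicate 3 lay among the MSTN-KO libraries. The gene was not tested, and with no filter its adjusted p was 0.430.

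By level, *Ak1* and *Ckb* led in WT with overlapping ranges, and *Ckm*, *Mb*, *Ampd3* and *Fabp3* followed. The ranges of these 4 genes overlapped, and all 4 were lowest in WT replicate 3 among the WT libraries. *Ampd1* and *Ppargc1a* were lowest and overlapped. In MSTN-KO the order was *Ak1*, *Ckb*, *Ampd3*, *Fabp3*, and then *Mb* and *Ckm*, whose ranges overlapped, while those of the others did not, and *Ampd1* and *Ppargc1a* came last. *Ckm* was above *Ampd3* in WT replicates 1 and 2 and below it in WT replicate 3 and in every MSTN-KO library.

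The variation inside the WT group ran through the members unequally. All 6 tested genes were lowest in WT replicate 3 among the WT libraries, as were 38.4% of all tested genes. The mean of WT replicates 1 and 2 was 7.14 times the value of WT replicate 3 for *Ckm* and 2.70 times for *Mb*. It was 1.59 times for *Ampd3*, 1.28 times for *Fabp3*, 1.24 times for *Ak1* and 1.202 times for *Ckb*.

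The markers of muscle differentiation showed the same library as lowest, with ratios from 2.22 for the myosin light chain gene *Myl1* to 5.61 for the cardiac actin gene *Actc1*. Their median deviation from the WT mean, on the log2(FPKM + 1) scale, was 0.61, 0.57 and -1.16 in WT, against -3.70, -3.27 and -3.10 in MSTN-KO. For *Ckm* the deviations were 0.80, 0.77 and -1.57 in WT and -2.65, -2.53 and -2.64 in MSTN-KO. For *Mb* they were 0.26, 0.57 and -0.82, and -2.90, -2.68 and -2.15. The marker level moved with these genes between the groups and in WT replicate 3. Within MSTN-KO, *Mb* had the markers' order of libraries and *Ckm* did not. The values there rest on about 4 to 21 fragments for *Mb* and 20 to 30 for *Ckm*, so little can be read from either order. The part of the marker level in the difference of these genes was not tested.

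**Figure D3:**
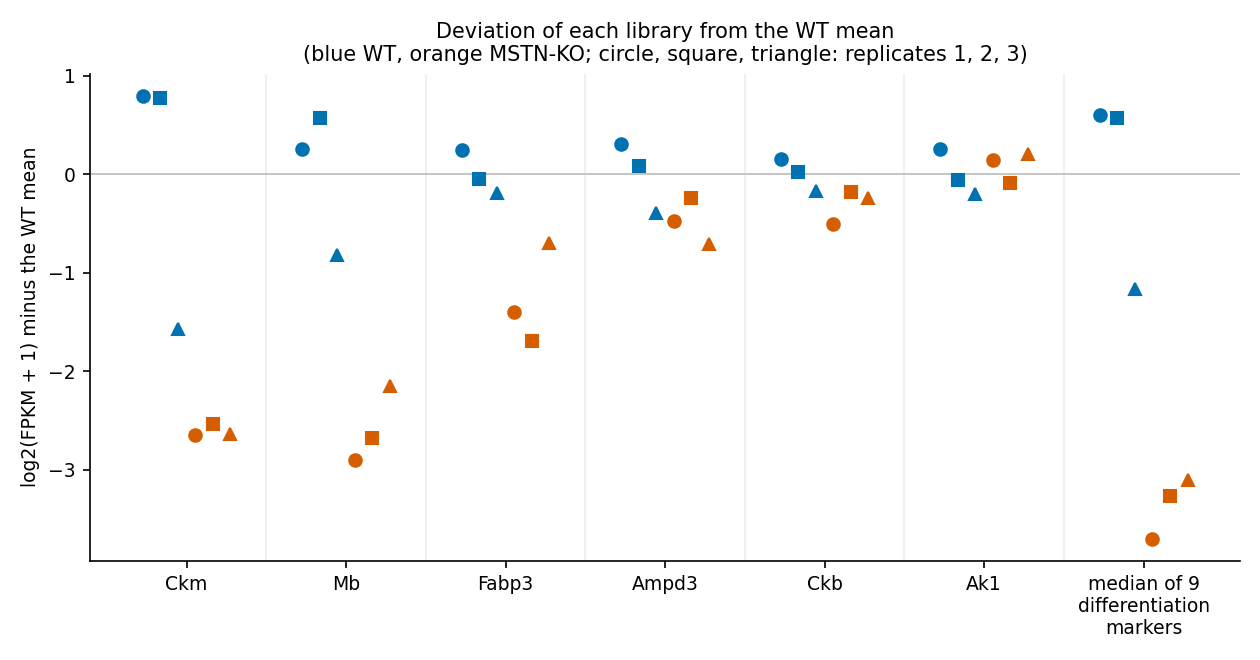
Deviation of each library from the WT mean on the log2(FPKM + 1) scale for the 6 tested energy buffer genes and for the median of 9 muscle differentiation markers. Blue is WT, orange is MSTN-KO, and circles, squares and triangles are replicates 1, 2 and 3. The WT triangle of *Ckm* lies at -1.57 and that of the markers at -1.16, between the other WT libraries and the MSTN-KO libraries, while all points of *Ckb* and *Ak1* lie within 0.51 of the WT mean.

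Other cell types were checked with marker lists. Of 5 measured precursor genes, *Myod1*, *Des* and *Itga7* were lower in MSTN-KO, *Pax7*, a gene of muscle stem cells, was higher, and *Myf5* was not called. *Myod1* and *Des* kept the call under all 16 alternatives, *Itga7* under 10 (adjusted p up to 0.178) and *Pax7* under 8 (adjusted p up to 0.130). *Fabp3* and *Mb* are also heart genes. The cardiac factor gene *Nkx2-5* was at 1.22 ± 0.356 FPKM in WT and 20.1 ± 1.58 FPKM in MSTN-KO (SD, n = 3) and was called higher, while *Nppb* was called lower, a call kept under 11 of 16 alternatives (adjusted p up to 0.119), and *Gata4* was not called. The cardiomyocyte markers *Myh6* and *Nppa* did not exceed 0.0415 and 0.167 FPKM. The summed cardiomyocyte list was 27.3 to 30.9 FPKM in WT and 40.4 to 44.7 FPKM in MSTN-KO. Without *Nkx2-5* its other 4 genes summed to 25.8 to 30.1 FPKM in WT and 21.02 to 24.0 FPKM in MSTN-KO, so *Nkx2-5* alone set the direction of the sum. The part of these genes in the values of *Fabp3* and *Mb* was not tested.

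The adipocyte, osteoblast, endothelial, epithelial and neural lists each summed to less than 1 FPKM in every library. The adipocyte and neural sums each rest on 1 of 4 listed genes (*Plin1* and *Gfap*). The osteoblast and epithelial sums rest on 2 of 4 each, and the endothelial sum on all 4. The other members, *Adipoq*, *Alpl* and *Epcam* among them, are not analysed here. The leukocyte list, carried by *Cd68*, summed to 1.15 to 1.51 FPKM in WT and 0.726 to 2.45 FPKM in MSTN-KO.

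The genes around the energy buffer were taken from 9 lists ordered by role. Of the 79 genes listed, 68 had a value and 53 were tested, and 4 were called lower and 4 higher. Neither count exceeded the share over all tested genes, which was 8.96% lower and 8.78% higher. Leaving out the 6 tested energy buffer genes, 47 were tested, of which *Gatm* was called lower and *Ak4*, *Ada*, *Fabp4* and *Acsl1* were called higher. Their median log2 fold change was 0.11. Scaling to a sum of 1000000 gave 15 lower and 1 higher of the listed genes, and 2425 lower and 360 higher of all tested genes against 971 and 952 without it.

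In creatine synthesis and uptake, *Gatm*, which encodes the first enzyme of the pathway, was at 57.0 ± 4.09 FPKM in WT and 40.6 ± 4.96 FPKM in MSTN-KO (SD, n = 3). Its log2 fold change was -0.48 (limma adjusted p = 0.0222). The call was lost when WT replicate 2, WT replicate 3, MSTN-KO replicate 1 or MSTN-KO replicate 3 was left out, with adjusted p up to 0.110. *Gamt*, the second enzyme, was at 70.5 ± 18.9 and 94.6 ± 7.76 FPKM (adjusted p = 0.0894), and the creatine transporter gene *Slc6a8* had an adjusted p of 0.249. The steps before creatine kinase therefore had 1 gene lower and 2 not called.

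Among 5 tested adenylate kinases, *Ak4*, a mitochondrial form, rose from 5.15 ± 0.973 to 9.51 ± 1.55 FPKM (log2 fold change 0.78, limma adjusted p = 0.00701), and 0 were lower. The call was lost with scaling to a sum of 1000000 (adjusted p = 0.0657). Among 5 tested genes of AMP breakdown and purine salvage, the adenosine deaminase gene *Ada* rose from 6.52 ± 0.364 to 11.1 ± 1.95 FPKM (0.67, adjusted p = 0.00962). The *Ada* call was lost with the same scaling (adjusted p = 0.0515) and without WT replicate 2 (0.0503). *Nt5e*, of the same list as *Ada*, stayed below 1 FPKM and was not tested. It was at 0.629 ± 0.102 FPKM in WT and 0.0787 ± 0.0566 FPKM in MSTN-KO (SD, n = 3). With no filter on low values it was called lower (log2 fold change -0.59, limma adjusted p = 0.00239).

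Among 10 tested genes of fatty acid binding, uptake and mitochondrial import, *Fabp3* was the only one called lower. *Fabp4*, the fatty acid binding protein gene of adipocytes, was at 0.241 ± 0.0891 FPKM in WT and 1.24 ± 0.459 FPKM in MSTN-KO (SD, n = 3) and was called higher (log2 fold change 0.83, limma adjusted p = 0.00924), also under all 15 alternatives that tested it. It passed the filter through the group in which it was high, in MSTN-KO replicates 1 and 3 only (1.03 and 1.76 FPKM). MSTN-KO replicate 2 was at 0.919 FPKM, and WT replicates 1, 2 and 3 were at 0.147, 0.252 and 0.324 FPKM. The fragments behind these low values were not estimated. *Acsl1*, which activates long-chain fatty acids, rose from 3.89 ± 0.726 to 6.30 ± 0.649 FPKM (0.59, adjusted p = 0.0245), a call lost under 6 of 16 alternatives with adjusted p up to 0.138. *Fabp5*, by far the highest gene of the family, was at 298 ± 52.7 and 340 ± 43.7 FPKM (adjusted p = 0.393).

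By limma's adjusted p, 0 genes were called in 4 of the lists. An unadjusted p under 0.05, in either direction, was reached by 32.6% of all tested genes. Of 5 tested genes of the purine nucleotide cycle, *Ampd3* and *Adsl* had an unadjusted p under 0.05, in opposite directions. In the PGC-1 list, with 9 tested genes and fold changes of -0.26 to 0.36, *Ppard* alone had one. In the AMP-activated protein kinase list, with 8 tested genes, 4 had one, *Prkab2*, *Prkag3* and *Camkk2* below 0 and *Stk11* above. *Prkag3*, the subunit of glycolytic muscle fibres, was at 0.816, 1.15 and 0.297 FPKM in WT and 0.221, 0.0671 and 0.141 FPKM in MSTN-KO (log2 fold change -0.59, adjusted p = 0.0654) and entered the test through WT replicate 2 only. Among 5 genes of mitochondrial ADP and ATP exchange, the carrier genes *Slc25a4* and *Slc25a5* had one, both above 0 (0.39 and 0.43, adjusted p = 0.0613 and 0.0526).

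**Figure D4:**
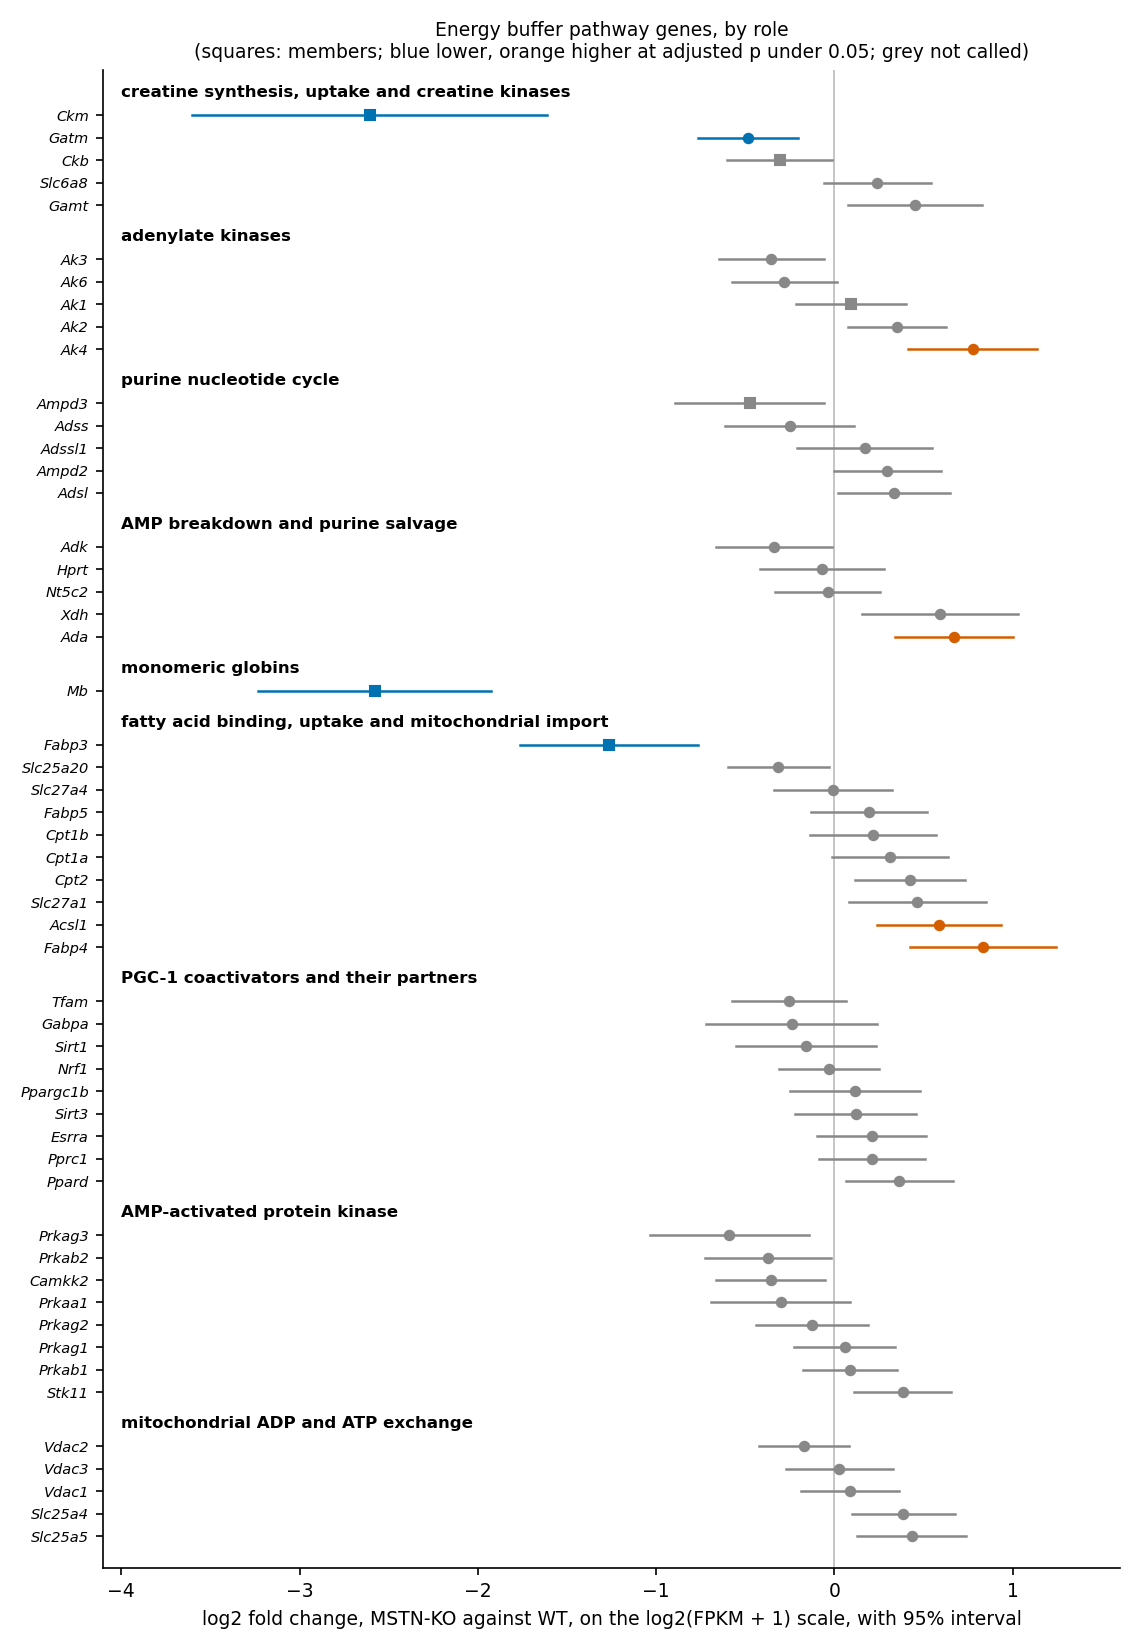
Log2 fold change, MSTN-KO against WT, of the 53 tested genes of the energy buffer lists on the log2(FPKM + 1) scale with 95% intervals. Squares are energy buffer genes and circles the other listed genes, in blue where called lower, orange where called higher and grey where not called. *Ckm* and *Mb* lie at -2.61 and -2.58, *Fabp3* at -1.26, and every other gene between -0.59 and 0.83.

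The genes nearest to the creatine kinases in pattern were found from the root mean square difference of log2(FPKM + 1), centred on each gene's mean, over the 6 libraries. For *Ckm* they were *Myh3*, the embryonic myosin heavy chain gene, at 0.227, *Mymx*, the gene of a fusion micropeptide, at 0.251, and *Fgf21*, the gene of a hormone, at 0.272. *Myh3* was at 11.2, 14.5 and 2.73 FPKM in WT and 0.126, 0.457 and 0.343 FPKM in MSTN-KO. *Mymx* and *Fgf21* had the same low WT replicate 3, at 5.11 and 2.20 FPKM. For *Ckb* the nearest were *Parp12* at 0.0477, *Rnf157* at 0.0486 and *Nectin2* at 0.0490, none of them a muscle differentiation marker in the lists used.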

How the data were processed

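mRNA of C2C12 cells was measured in 3 libraries labelled WT and 3 labelled MSTN-KO. The authors sequenced them on an Illumina HiSeq system and deposited FPKM values per gene, 1 library per file, with replicates not pooled. The submitters' processing notes name Bowtie 0.12.2 and mm8 without their roles, and the annotation used is not given in the sources used here. Symbols and positions came from GENCODE M21 on GRCm38, and 14445 of 14548 identifiers had a symbol, length and GC content (99.3%).

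The test was limma 3.58.1 (R 4.3.3) on log2(FPKM + 1), with a group term and a mean-variance trend, over genes that reached 1 FPKM in any library, and genes were called at a Benjamini-Hochberg adjusted p under 0.05. Values of 2 groups of 3 were compared by exact permutation over 20 splits. The named genes were the 9 energy buffer genes, up to 3 called genes with the largest change per list, and the 3 nearest in pattern to each creatine kinase. The members and lists were chosen with earlier results of these data known. A gene named beyond this rule was named after its values were seen.

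What 1 fragment is worth was estimated from genes with a single transcript of over 1500 bases. Between 71.0% and 78.6% of their low values lay within 0.2 of a whole multiple, so counts were not recovered, and fragment numbers are approximate. They cover counting error only. On simulated data for MSTN-KO against WT (10837 genes, 200 changed), 98% of changed genes were called, with 10 false calls. The share called among genes with differences as small as that of *Fabp3* or smaller, such as those of *Ckb* and *Ampd3*, was not tested. The alternatives were a pseudocount of 0.1, other filters, no trend, other scalings, a replicate block, a length and GC correction from mgcv 1.9.3, the study's call rule and leaving out each library. Tables were handled in Python 3.11.15 (pandas 2.3.3, numpy 2.4.6) and plotted with matplotlib 3.10.9. Promoter sequences came from a RefSeq table for GRCm38.p6.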

Additional observations from a re-analysis of the deposited data

How the results depend on the processing

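*Ckm*, *Mb* and *Fabp3* were called lower under all 16 alternatives, and 0 of the 8 measured genes were called higher under any. Scaling to a sum of 1000000 gave 5 energy buffer genes lower (*Ckb* and *Ampd3* added), 2425 and 360 of all tested genes lower and higher, and 15 and 1 of the listed pathway genes, against 3, 971, 952, 4 and 4. The length and GC correction gave 9 pathway genes lower and 9 higher, and 1327 of all tested genes lower and 1143 higher. The study's rule called 249 of all tested genes lower and 131 higher. *Ak1* reversed to -0.049 (quantile normalization), -0.19 (sum of 1000000), -0.0021 (length and GC correction, with and without the replicate block) and -0.0077 (without WT replicate 3), never called, and the *Ampd1* to *Ampd3* ratio reversed to -0.29 with a pseudocount of 0.1. The causes were not tested.

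Leaving out 1 library gave 3 to 4 energy buffer genes lower, 606 to 1251 of all tested genes lower and 423 to 1184 higher, 3 to 5 pathway genes lower and 2 to 10 higher. Under the same omissions the *Ckm* to *Ckb* log2 ratio differed by -3.00 to -1.92, the *Ampd1* to *Ampd3* ratio by 0.21 to 0.58, *Ak1* by -0.0077 to 0.22 and the *Ckm* share by -9.19 to -5.08 percentage points. Without WT replicate 2 the counts of all genes were 606 lower and 423 higher, and that of pathway genes higher was 2. The count of all genes higher was 603 without WT replicate 3, 511 without MSTN-KO replicate 1 and 583 without MSTN-KO replicate 3. Without MSTN-KO replicate 2, 10 pathway genes and 1184 of all tested genes were higher.

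No pairing of same-numbered libraries was seen, since their deviations correlated at -0.015, -0.13 and -0.14. Differently numbered libraries correlated at -0.069 to 0.16. With 3 libraries per group, a pairing could have been missed. The replicate block gave 7 pathway genes and 939 of all tested genes higher. With the length and GC correction added, 5 energy buffer genes (*Ckb* and *Ampd3* added), 7 pathway genes and 1118 of all tested genes were lower. Low fragment numbers limit *Ampd1*, *Ppargc1a* and the MSTN-KO values of *Ckm*, *Mb* and *Fabp3*. The low FPKM of *Fabp4* limits its call as well.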
